A study of Mus musculus with 12 samples.

Results

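The macrophage marker genes described here are 10 genes whose products are in common use to recognise macrophages: Csf1r, Adgre1, Ptprc, Cd14, Fcgr3, Tyrobp, Lyz2, Cd68, Laptm5 and Aif1. They were listed by name and matched by mouse gene symbol to the Ensembl identifiers of the count data, where all 10 were found among 37991 identifiers. The study asked how a change in the transcription factor E2F1 that prevents its acetylation alters gene expression before and after DNA damage. Messenger RNA was sequenced from primary mouse embryonic fibroblasts (MEFs), connective tissue cells grown out of dissociated embryos. Wild-type (WT) MEFs were compared with MEFs homozygous for the knock-in allele E2f1 3KR, in which the 3 lysines of E2F1 that are acetylated after damage are replaced by arginine. Both genotypes were of strain FVB, were isolated on embryonic day 13.5, were kept in 5% O2 and were used at passage 3. Each genotype was either left untreated or treated with 250 ng/ml neocarzinostatin (NCS), a radiomimetic drug that breaks DNA, for 3 h, giving 3 samples in each of 4 groups. The embryos came from heterozygous or homozygous parents, WT mice were bought and the knock-in line was bred in house, and whether any embryos were littermates is not given in the sources used here.

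Macrophages are phagocytes of the myeloid lineage that populate embryonic tissues from the yolk sac and the fetal liver onwards, so that primary cultures of embryonic tissue can contain some of them. They live on signals through the CSF1 receptor, sense microbial products through CD14 and Toll-like receptors, bind antibody-coated particles through Fc receptors that signal by adaptors with an ITAM, an activation motif read by kinases, and digest what they engulf in lysosomes. Several of the genes, such as Ptprc, Laptm5 and Tyrobp, are shared with other blood cells, and transcripts of some, such as Cd68, can also be found in fibroblasts.

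Counted reads per sample ran from 36817729 to 45279321 in untreated WT samples, 38106188 to 42533960 in WT samples after NCS, 36084015 to 41069406 in untreated 3KR samples and 33203757 to 38041722 in 3KR samples after NCS. Levels are given below as normalized counts, the deposited counts divided by a size factor for each sample, always in the order of the sample numbers 1, 2 and 3. E2f1 itself, whose knock-in leaves a transcript that is still counted, stood at 1042, 1099 and 1296 normalized counts in untreated WT samples and at 1125, 1111 and 1128 in untreated 3KR samples, and after NCS at 1173, 1261 and 1277 in WT samples and 1259, 1167 and 1243 in 3KR samples. The groups overlapped in each treatment (log2 fold change -0.033 ± 0.063, adjusted p = 0.710 without treatment and -0.016 ± 0.063, adjusted p = 0.863 after NCS), so the level of E2f1 does not check the genotype labels. The genotypes differed in sex-linked transcripts: Xist, which is made from the inactive X chromosome, lay between 32.3 and 62.5 normalized counts in the 6 WT samples and between 30590.1 and 35635 in the 6 3KR samples. The Y-linked gene Ddx3y lay between 5370.3 and 5822 in WT samples and reached at most 16.2 in 3KR samples. An effect of sex and an effect of genotype cannot be told apart here, and every difference between the genotypes below is also a difference between cultures of unlike sex. WT number 3 stood apart from the other WT samples in both treatments. Over genes, the chi-square statistic per gene between it and WT numbers 1 and 2 was 7.59 to 9.40, against 2.03 to 2.33 for all other pairs within a group. Results are therefore also given without it.

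The label of the cultures was checked against marker genes. All 12 fibroblast markers passed the filter on low counts, and the most abundant, the collagen gene Col1a1, stood at 94253 normalized counts per kb of exon in untreated WT samples and at 116556 in untreated 3KR samples. On the same scale per kb, Lyz2, the most abundant macrophage marker gene, stood at 1865 in untreated WT samples and at 3011 in untreated 3KR samples. The 10 macrophage marker genes together took 115, 114 and 98.7 CPM (counts per total of each sample) in untreated WT samples, 116, 120.0 and 105 in WT samples after NCS, 207, 208 and 207 in untreated 3KR samples and 187, 191 and 185 in 3KR samples after NCS. Thus Col1a1 stood far above Lyz2 per kb in the untreated samples of both genotypes. The 10 macrophage marker genes took a small part of all counts, which was higher in each 3KR sample than in any WT sample.

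Without treatment, 9 of the 10 macrophage marker genes were higher in 3KR MEFs and 0 were lower (edgeR quasi-likelihood test with Benjamini-Hochberg adjustment, adjusted p under 0.05). At an unadjusted p under 0.05 the number was 10, all higher, and DESeq2 also called 9. The background for this count is wide, since 22.1% of the 15327 genes tested were higher in untreated 3KR MEFs and 23.6% were lower. The values of all 10 genes were higher in each untreated 3KR sample than in each untreated WT sample, as were those of 27% of all genes tested, while 26.6% of all genes were lower in every 3KR sample. The median log2 fold change of the 10 genes was 1.14, beside -3.56e-04 over all genes tested. Without WT number 3 the count was again 9 higher and 0 lower, with a median of 1.08. In bulk samples such as these, fewer cells of a type and less RNA per cell cannot be told apart. All 10 genes passed the filter on low counts, the lowest count of any of them in any sample being 17, for Aif1.

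**Figure D1:**
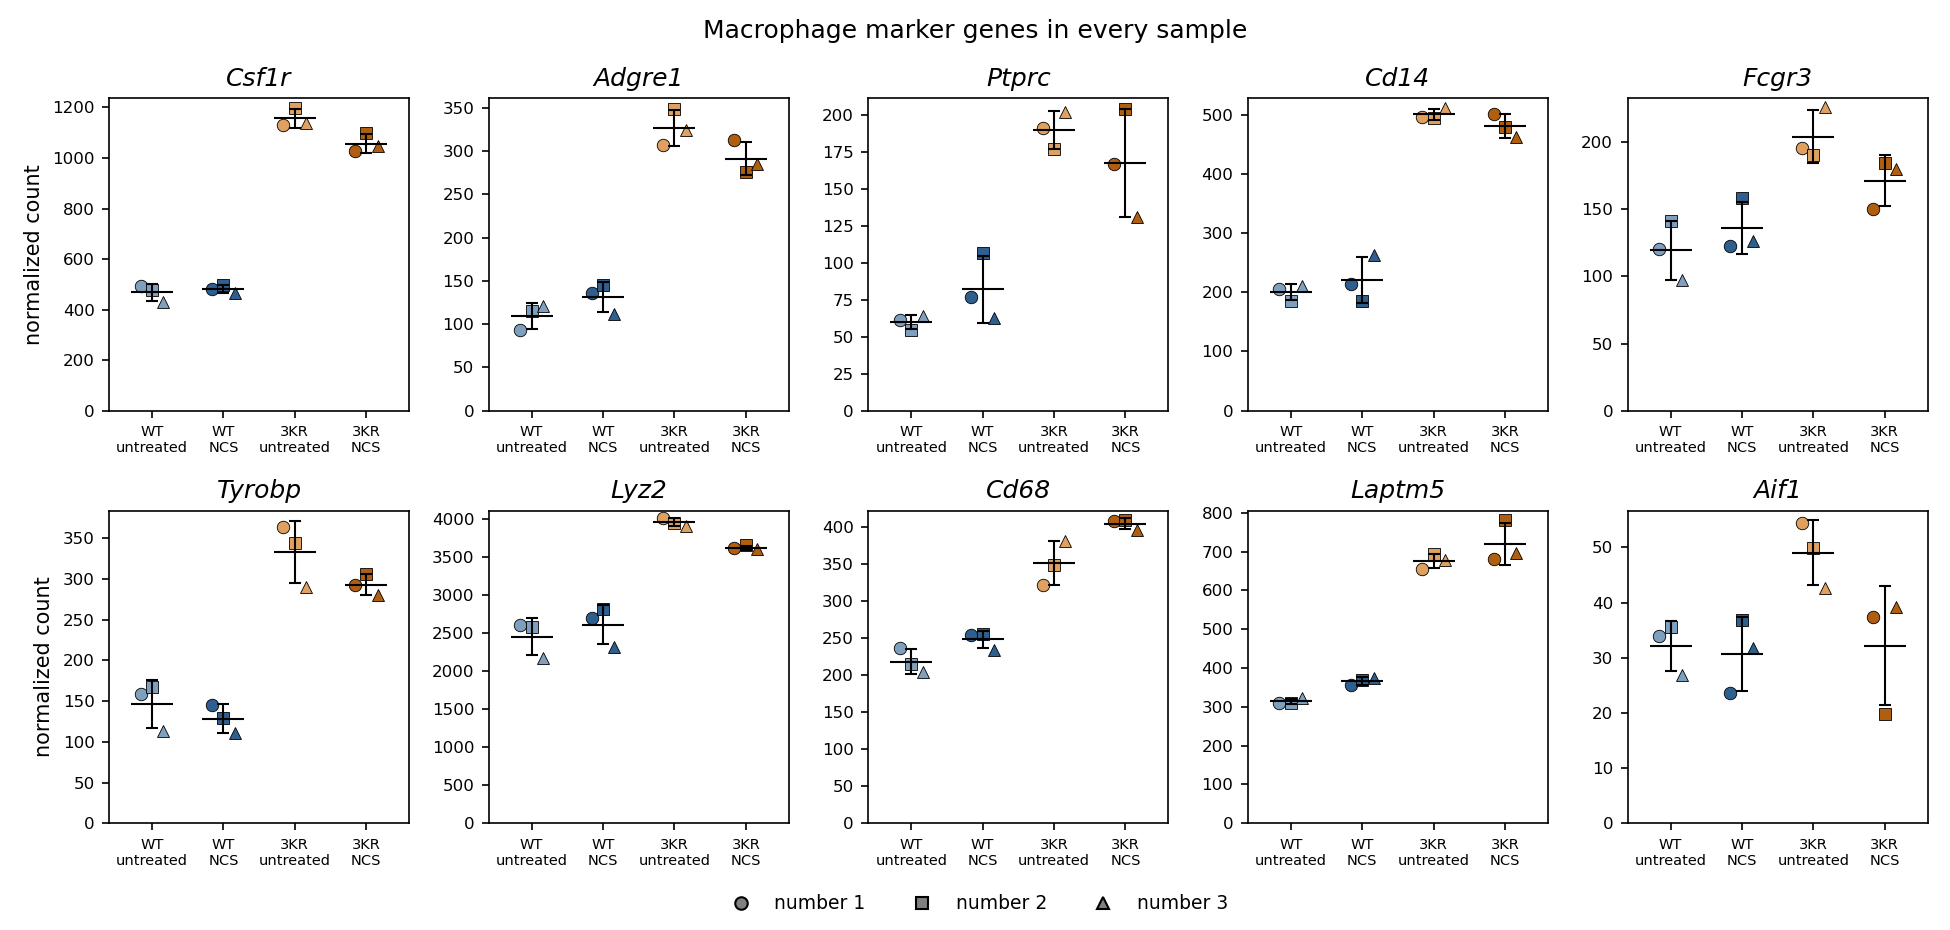
Normalized counts of the 10 macrophage marker genes in each of the 12 samples, on an axis from 0 for each gene. Circles, squares and triangles are samples number 1, 2 and 3, horizontal lines are means and bars are SDs (n = 3). Untreated 3KR samples (light orange) lie above untreated WT samples (light blue) for all 10 genes; after NCS (dark symbols) the genotypes overlap for Fcgr3 and Aif1.

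The CSF1 receptor, Csf1r, is the tyrosine kinase receptor on which macrophage survival and growth depend. Its level was 495, 479 and 429 normalized counts in untreated WT samples and 1132, 1199 and 1140.2 in untreated 3KR samples. After NCS it was 479.7, 497 and 466 in WT samples and 1026, 1099 and 1046 in 3KR samples. All 6 3KR samples were above all 6 WT samples, with the lowest untreated 3KR sample at 2.28 times the highest untreated WT sample. The log2 fold change between genotypes was 1.30 ± 0.060 (SE, adjusted p = 1.01e-14) without treatment and 1.13 ± 0.061 (SE, adjusted p = 1.98e-13) after NCS, or 2.46-fold and 2.20-fold. The exons of Csf1r share 873 bases with those of Hmgxb3 on the opposite strand. The strand setting of the counting is not given in the sources used here, so whether and how this overlap affected the counts of Csf1r is not known. Hmgxb3 itself was lower in untreated 3KR MEFs, with a log2 fold change of -0.20 (adjusted p = 5.74e-04).

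The ligands of this receptor differed less between the genotypes. Csf1, the growth factor that fibroblasts supply to macrophages, had 29447, 30253 and 33897 normalized counts in untreated WT samples and 30491, 30743 and 31044 in untreated 3KR samples. These groups overlapped, and the log2 fold change was -0.026 ± 0.039 (SE, adjusted p = 0.627). Without untreated WT number 3 it was 0.039 (adjusted p = 0.282), and without WT number 3 in both treatments Csf1 was called higher, at 0.045 (adjusted p = 0.0130). After NCS Csf1 rose to 40482, 41005 and 44608 in WT samples and to 46975, 46793 and 47185 in 3KR samples. Its NCS response was 0.43 ± 0.039 (SE, adjusted p = 1.53e-08) in WT MEFs and 0.61 ± 0.039 (SE, adjusted p = 2.71e-11) in 3KR MEFs, and the difference between these responses was 0.19 ± 0.055 (SE, adjusted p = 0.0620). This difference passed in 10 of 19 alternatives: with library totals, DESeq2, no filter, at least 10 counts throughout or the sample number as a block, without any 1 of the untreated WT samples, without NCS-treated WT number 3, and without WT number 3 in both treatments, at 0.17 (adjusted p = 1.27e-08). Without single WT samples it was 0.23, 0.21 and 0.12 for untreated numbers 1, 2 and 3 and 0.23 for NCS-treated number 3 (adjusted p = 0.0190, 0.0492, 0.0406 and 0.00588). After NCS Csf1 was higher in 3KR MEFs by 0.16 ± 0.039 (SE, adjusted p = 0.00161) on the log2 scale. Il34, the second ligand, had a log2 fold change of -0.029 ± 0.14 (SE, adjusted p = 0.886) between untreated genotypes. Of the receptors for the related factor GM-CSF, the shared beta chain Csf2rb was higher in untreated 3KR MEFs, at 0.98 ± 0.19 (SE, adjusted p = 1.44e-04). The alpha chain Csf2ra differed by 0.22 ± 0.079 (SE, adjusted p = 0.0241), a call that was lost with DESeq2 and without untreated WT number 1 or 2 or untreated 3KR number 1 or 3, where the adjusted p reached 0.133. After NCS Csf2ra differed by 0.21 ± 0.081 (SE, adjusted p = 0.0350), a call lost with DESeq2 and without NCS-treated WT number 1 or 3, any NCS-treated 3KR sample or WT number 3 in both treatments (adjusted p up to 0.100). The growth factor genes Csf2 and Csf3 did not pass the filter on low counts. Over this axis 5 of 7 genes were tested, of which 3 were higher and 0 lower in untreated 3KR MEFs (median 0.22), and 4 were higher and 0 lower after NCS (median 0.21). These counts include Csf1r; without it 2 of 4 were higher in untreated 3KR MEFs (median 0.10) and 3 after NCS (median 0.19), with 0 lower. Over all 5 the counts without WT number 3 were 4 higher without treatment and 3 after NCS, with 0 lower.

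Adgre1 encodes F4/80, the surface receptor most used to identify mouse macrophages. It had 92.8, 115 and 121 normalized counts in untreated WT samples and 307, 348 and 325 in untreated 3KR samples. After NCS the values were 136, 145 and 111 in WT samples and 313, 275 and 285 in 3KR samples. Every 3KR sample was above every WT sample in both treatments. The log2 fold change was 1.58 ± 0.12 (SE, adjusted p = 7.42e-11) without treatment, a 2.99-fold difference, and 1.15 ± 0.12 (SE, adjusted p = 1.76e-08) after NCS, a 2.22-fold difference.

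Ptprc encodes CD45, a tyrosine phosphatase carried by all nucleated blood cells, and has low counts here for a long gene. Untreated WT samples had 61.3, 54.8 and 64.2 normalized counts and untreated 3KR samples 191, 177 and 202. After NCS, WT samples had 76.9, 107 and 62.7 and 3KR samples 167, 204 and 131. The untreated groups were far apart, with the lowest 3KR sample at 2.76 times the highest WT sample, whereas after NCS this ratio was 1.23 because WT number 2 was high and 3KR number 3 was low. Its log2 fold change was 1.65 ± 0.18 (SE, adjusted p = 4.48e-08) without treatment and 1.01 ± 0.17 (SE, adjusted p = 4.04e-05) after NCS.

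Cd14 encodes the co-receptor that hands bacterial lipopolysaccharide to Toll-like receptor 4. Its normalized counts were 206, 186 and 211 in untreated WT samples and 497, 495 and 512 in untreated 3KR samples. After NCS they were 214, 185 and 263 in WT samples and 501, 479.5 and 462 in 3KR samples. The 3KR samples lay above all WT samples, and WT number 3 was the highest WT sample in each treatment. Cd14 differed by 1.31 ± 0.10 (SE, adjusted p = 5.50e-11) without treatment and 1.13 ± 0.10 (SE, adjusted p = 9.64e-10) after NCS on the log2 scale. A list of 12 genes of the CD14 and TLR4 pathway includes Cd14 itself. All were tested, of which 3 were higher and 1 lower in untreated 3KR MEFs (median 0.049), and 3 were higher and 2 lower after NCS (median 0.060). Without Cd14, 2 of 11 were higher and 1 lower in untreated 3KR MEFs (median 0.033), and 2 higher and 2 lower after NCS (median 0.055). After NCS 1 of the 2 lower calls was lost in 11 of 14 alternatives, among them DESeq2, library totals and the fits without NCS-treated WT number 2 or 3, any 1 of the NCS-treated 3KR samples or WT number 3 in both treatments (adjusted p up to 0.371). Tlr2, which recognises bacterial lipoproteins, had 85.3, 84.2 and 83.8 normalized counts in untreated WT samples and 274, 291 and 259 in untreated 3KR samples, with no overlap and a log2 fold change of 1.69 ± 0.12 (SE, adjusted p = 6.69e-11). Tlr4, the lipopolysaccharide receptor itself, was higher in untreated 3KR MEFs by 0.50 ± 0.059 (SE, adjusted p = 1.97e-07). The adaptor Tirap was lower, at -0.15 ± 0.058 (SE, adjusted p = 0.0403), a call that was lost with library totals, with DESeq2, with only the compared samples, without untreated WT number 3, without untreated 3KR number 1 or 3 and without WT number 3 in both treatments, where the adjusted p reached 0.237.

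Fcgr3 encodes the low-affinity IgG receptor CD16. Untreated WT samples had 120.1, 141 and 97.3 normalized counts and untreated 3KR samples 196, 190.3 and 226. After NCS, WT samples had 123, 159 and 126 and 3KR samples 149.9, 184 and 179.9. The untreated groups did not overlap, but after NCS WT number 2 was above 3KR number 1. Fcgr3 was higher in untreated 3KR MEFs by 0.77 ± 0.14 (SE, adjusted p = 6.95e-05) on the log2 scale, while after NCS the value was 0.33 ± 0.14 (SE, adjusted p = 0.0620), which missed the threshold. It passed after NCS without WT number 2, at 0.46 (adjusted p = 0.0205), and without 3KR number 1, at 0.42 (adjusted p = 0.0353). Reads of Fcgr3 may be shared with the Fc receptor genes that resemble it in sequence, of which Fcgr2b differed by 0.29 ± 0.14 (SE, adjusted p = 0.0984) and Fcgr4 by 0.89 ± 0.42 (SE, adjusted p = 0.0877) in untreated samples.

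Tyrobp encodes DAP12, an adaptor with an ITAM that serves receptors such as TREM2. It had 158, 167 and 113 normalized counts in untreated WT samples and 364, 344 and 290.1 in untreated 3KR samples. After NCS it had 146, 129 and 110.5 in WT samples and 293, 306 and 280.2 in 3KR samples. No WT sample reached any 3KR sample, and WT number 3 was the lowest WT sample in both treatments. The log2 fold change was 1.17 ± 0.13 (SE, adjusted p = 4.67e-08) without treatment and 1.19 ± 0.13 (SE, adjusted p = 8.38e-08) after NCS, so that the fold differences, 2.25 and 2.28, were close to each other. All 17 ITAM adaptors, Fc receptors and kinases were tested, of which 13 were higher and 2 lower in untreated 3KR MEFs (median 0.95), and 11 were higher and 2 lower after NCS (median 0.83). Without Fcgr3 and Tyrobp, which this list includes, 11 of 15 were higher and 2 lower in untreated 3KR MEFs, and 10 higher and 2 lower after NCS. Of the 13 higher calls in untreated samples 1 was lost without untreated WT number 1 or 3 or untreated 3KR number 1 or 2 (adjusted p up to 0.0895). Syk, a kinase that binds phosphorylated ITAMs, was lower, with 814, 748 and 826 normalized counts in untreated WT samples and 479.7, 420.2 and 416 in untreated 3KR samples, a log2 fold change of -0.87 ± 0.069 (SE, adjusted p = 2.70e-10). The inositol phosphatase Inpp5d (SHIP1), which restrains this signalling, was higher by 1.19 ± 0.13 (SE, adjusted p = 5.77e-08).

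Lyz2 encodes lysozyme M, a secreted and lysosomal enzyme that digests bacterial cell walls, and gave the highest counts of the 10 genes. Untreated WT samples had 2606, 2583 and 2172 normalized counts and untreated 3KR samples 4023, 3947 and 3916. After NCS, WT samples had 2702, 2820.2 and 2325 and 3KR samples 3622, 3658 and 3608. WT number 3 was the lowest sample in each treatment and no WT sample overlapped a 3KR sample. The log2 fold change was 0.68 ± 0.059 (SE, adjusted p = 1.15e-09) without treatment and 0.47 ± 0.059 (SE, adjusted p = 5.77e-07) after NCS, among the smaller differences of the 10 genes. Its near-identical neighbour Lyz1 had 0 to 9 counts per sample and was not tested.

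Cd68 encodes a glycoprotein of late endosomes and lysosomes. Its normalized counts were 237, 215 and 204 in untreated WT samples and 322, 349 and 382 in untreated 3KR samples. After NCS they were 254, 256 and 235 in WT samples and 408, 409.5 and 396 in 3KR samples. The genotypes did not overlap in either treatment, and the 3KR samples after NCS were the highest of all. Cd68 differed by 0.68 ± 0.089 (SE, adjusted p = 1.01e-06) without treatment and by 0.70 ± 0.087 (SE, adjusted p = 4.46e-07) after NCS on the log2 scale.

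Laptm5 encodes a lysosomal membrane protein of blood cells that promotes the degradation of antigen receptors. It had 309.8, 310.4 and 322 normalized counts in untreated WT samples and 656, 693 and 679 in untreated 3KR samples. After NCS it had 357, 369 and 375 in WT samples and 682, 782 and 696 in 3KR samples. Every 3KR sample was above every WT sample, with a ratio of 2.04 between the lowest untreated 3KR sample and the highest untreated WT sample. The log2 fold change was 1.10 ± 0.068 (SE, adjusted p = 2.69e-12) without treatment and 0.97 ± 0.067 (SE, adjusted p = 2.45e-11) after NCS. Lyz2, Cd68 and Laptm5 also belong to a list of lysosome and phagosome genes. Of its 19 genes, 18 were tested, of which 7 were higher and 3 lower in untreated 3KR MEFs (median 0.044), and 6 were higher and 8 lower after NCS (median -0.026, adjusted p of the called genes up to 0.0477). Without these 3 genes, 4 were higher and 3 lower of 15 tested in untreated 3KR MEFs (median 0.015), and 3 higher and 8 lower after NCS (median -0.061). Of the 8 lower calls after NCS, 4 were lost with library totals, without NCS-treated WT number 1 or 2 and without any 1 of the NCS-treated 3KR samples (adjusted p up to 0.225), and 1 of the higher calls in untreated samples was lost without untreated WT number 3 or any 1 of the untreated 3KR samples (adjusted p up to 0.0721). The higher of these 15 included Ctss, a cathepsin of antigen-presenting cells, at 1.11 ± 0.10 (SE, adjusted p = 9.61e-10), and Gpnmb, a glycoprotein of phagocytes and pigment cells, at 1.03 ± 0.087 (SE, adjusted p = 6.94e-10). Ctsd, an aspartic protease of nearly all lysosomes, was lower at -0.38 ± 0.025 (SE, adjusted p = 1.23e-11).

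Aif1 encodes IBA1, a calcium-binding protein of the macrophage cytoskeleton, and had the fewest counts of the 10 genes. Its normalized counts were 34.0, 35.5 and 26.9 in untreated WT samples and 54.4, 49.9 and 42.7 in untreated 3KR samples. After NCS they were 23.6, 36.9 and 31.8 in WT samples and 37.5, 19.8 and 39.3 in 3KR samples. The untreated groups were adjacent without overlap, and after NCS 3KR numbers 1 and 3 were above all WT samples while 3KR number 2 was the lowest of all samples. The log2 fold change was 0.59 ± 0.25 (SE, adjusted p = 0.0592) without treatment and 0.074 ± 0.27 (SE, adjusted p = 0.853) after NCS, and neither passed the threshold. Its SEs were the largest of the 10 genes in both comparisons.

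The order of the levels was compared per kb of exon within each group. The length used was the union of all annotated exons of a gene, 18313 bases for Ptprc, so the order depends on this choice. In untreated WT samples Lyz2 stood at 1865 ± 185 normalized counts per kb (SD, n = 3), followed by Tyrobp at 219 and Cd68 at 174 per kb, whose samples overlapped. Cd14 came next at 116 per kb, then Laptm5 at 82.9, Csf1r at 81.0 and Fcgr3 at 68.8, each of which overlapped its neighbour. Adgre1 at 33.8, Aif1 at 20.97 and Ptprc at 3.28 per kb were lowest and did not overlap. In untreated 3KR samples the order was Lyz2 at 3011, Tyrobp at 499, Cd14 at 289, Cd68 at 279, Csf1r at 200.4, Laptm5 at 178, Fcgr3 at 118, Adgre1 at 101, Aif1 at 32.0 and Ptprc at 10.4 normalized counts per kb, and the overlapping neighbours were Cd14 and Cd68. After NCS the 3KR samples kept Lyz2 ahead at 2758 and Ptprc last at 9.15 per kb, and the overlapping neighbours were Laptm5 with Csf1r and Fcgr3 with Adgre1. In WT samples after NCS Lyz2 was again highest at 1988 and Ptprc lowest at 4.49 per kb, with Cd68 overlapping Tyrobp and Csf1r overlapping Fcgr3.

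After NCS, 8 of the 10 genes were higher in 3KR MEFs and 0 were lower, and Fcgr3 and Aif1 were not called. Among all genes tested 22.9% were higher and 23.6% lower after NCS. For 8 genes all 3KR samples were above all WT samples, as for 27% of all genes, with 27.3% of all genes lower in every 3KR sample. DESeq2 called 8, and 9 had an unadjusted p under 0.05. The median log2 fold change was 0.99, beside 0.00367 over all genes. Without WT number 3 the count was 8 higher and 0 lower, with a median of 0.92. The comparisons with and without NCS used different samples of each genotype, so each gene's pair of values above comes from separate libraries.

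**Figure D2:**
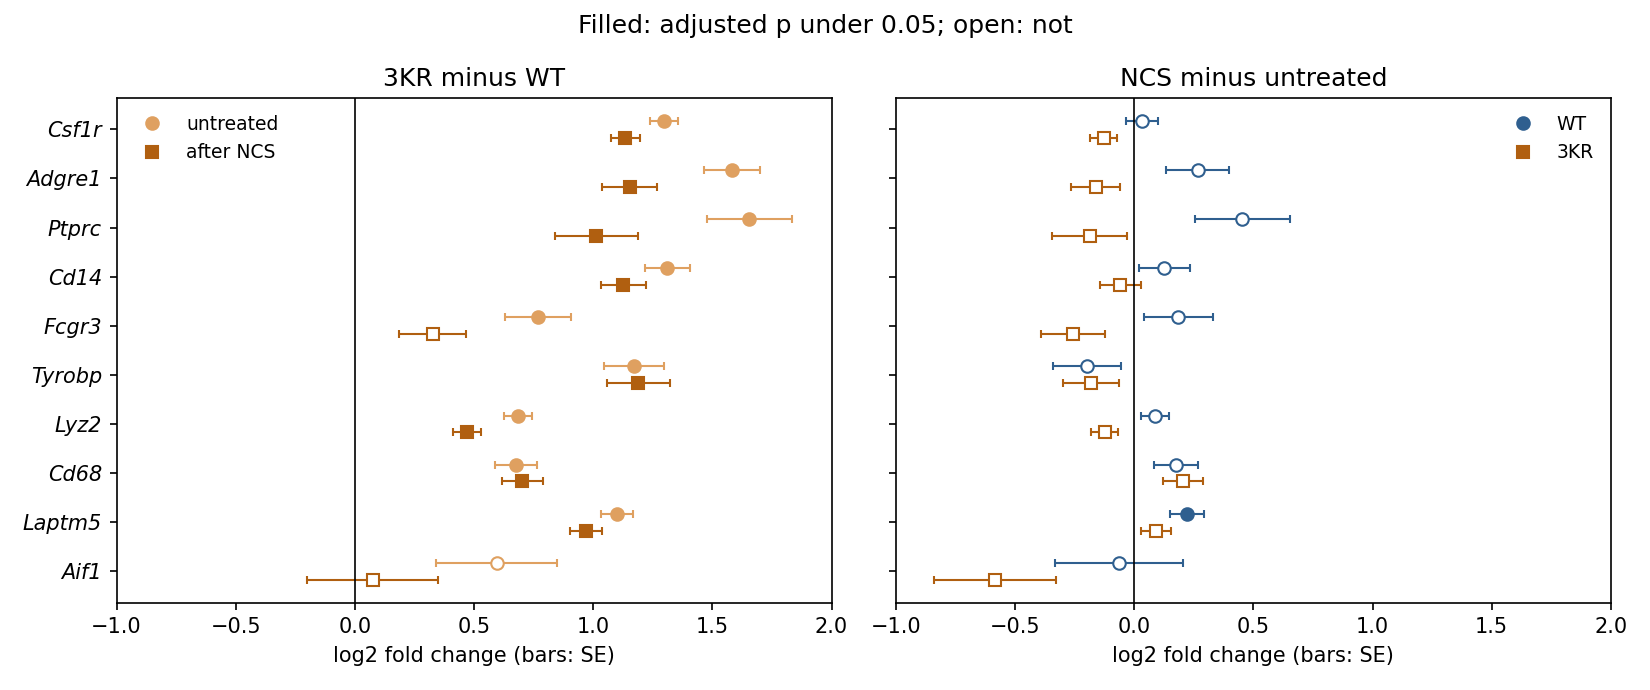
Log2 fold changes of the 10 macrophage marker genes with their SEs (bars) from edgeR. Left, 3KR minus WT, untreated (circles) and after NCS (squares), where all values are above 0; right, NCS minus untreated in WT (circles) and 3KR (squares) MEFs, where values lie between -0.58 and 0.45 and Laptm5 in WT MEFs is the filled symbol.

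The responses to NCS were tested within each genotype. In WT MEFs 1 gene, Laptm5, was called higher and 0 were lower, against 14.3% of all genes higher and 12.4% lower. DESeq2 also called 1, and 2 genes had an unadjusted p under 0.05. Laptm5 was also the 1 gene whose NCS samples were all above the untreated WT samples, as for 18.6% of all genes, while 16.5% of all genes were lower in every NCS sample. The median log2 response of the 10 genes was 0.15, beside 0.00536 over all genes. Laptm5 rose by 0.22 ± 0.073 (SE, adjusted p = 0.0265). This call was lost without untreated WT number 1 (adjusted p = 0.0817), untreated WT number 2 (0.0725), NCS-treated WT number 2 (0.0699) or NCS-treated WT number 3 (0.0714), with library totals in place of TMM scaling (0.0779), with no filter (0.0588), with only the compared samples (0.0749) and without WT number 3 in both treatments (0.0585). With the sample number as a block, which pairs the WT samples, 2 genes were called, Laptm5 at an adjusted p of 0.0218 and Lyz2 at 0.088 (adjusted p = 0.0221), where the unblocked Lyz2 value was 0.087 ± 0.060 (SE, adjusted p = 0.321). Without WT number 3 in both treatments the called genes were Adgre1, at 0.45 (adjusted p = 0.0171), and Ptprc, at 0.66 (adjusted p = 0.00866). With that sample Adgre1 responded by 0.27 ± 0.13 (SE, adjusted p = 0.148) and Ptprc by 0.45 ± 0.20 (SE, adjusted p = 0.0973). Leaving out NCS-treated WT number 3 alone brought in Adgre1, Lyz2 and Ptprc (adjusted p = 0.0486, 0.0202 and 0.0224). Over all genes the split in WT MEFs was 2189 higher and 1901 lower with TMM scaling and 1464 higher and 2885 lower with library totals.

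In 3KR MEFs edgeR called 0 of the 10 genes after NCS, with 15.8% of all genes higher and 15% lower. DESeq2 also called 0, and 4 genes had an unadjusted p under 0.05. The NCS samples were all higher for 1 gene, Cd68, and all lower for 4 genes, Csf1r, Lyz2, Fcgr3 and Aif1, where 24% of all genes were higher and 23.6% lower in this way. The median was -0.15, beside -7.85e-04 over all genes. Cd68 responded by 0.20 ± 0.083 (SE, adjusted p = 0.0691) and passed without untreated 3KR number 3, at 0.27 (adjusted p = 0.0351). The response of Csf1r was -0.13 ± 0.055 (SE, adjusted p = 0.0816), that of Lyz2 -0.12 ± 0.058 (SE, adjusted p = 0.111) and that of Aif1 -0.58 ± 0.26 (SE, adjusted p = 0.0902). With library totals Csf1r and Lyz2 were called lower (adjusted p = 0.0189 and 0.0312), and the split over all genes moved from 2417 higher and 2304 lower to 1718 higher and 3275 lower. The median of all genes was -0.047 with that scaling, and each of the 10 genes kept its direction.

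Whether the genotypes responded differently to NCS was tested with the interaction term. By edgeR 0 of the 10 genes differed, against 1.86% of all genes with a higher and 1.87% with a lower response in 3KR MEFs. DESeq2 also called 0, and 4 genes had an unadjusted p under 0.05. The median difference was -0.20, beside 0.00392 over all genes, and 8 of the 10 differences were below 0. Ptprc had -0.64 ± 0.25 (SE, adjusted p = 0.190), Fcgr3 -0.44 ± 0.20 (SE, adjusted p = 0.265), Adgre1 -0.43 ± 0.17 (SE, adjusted p = 0.187) and Lyz2 -0.21 ± 0.084 (SE, adjusted p = 0.193). Without WT number 3 in both treatments, where 936 of all 15565 genes had a higher and 906 a lower response in 3KR MEFs, 3 genes passed with lower responses: Adgre1 at -0.61 (adjusted p = 0.0145), Ptprc at -0.85 (adjusted p = 0.0115) and Lyz2 at -0.21 (adjusted p = 2.88e-04). Lyz2 also passed without NCS-treated WT number 3 alone, at -0.29 (adjusted p = 0.0110). With all samples included, Lyz2 passed with no filter (adjusted p = 0.0103) and with the sample number as a block, at -0.21 (adjusted p = 6.73e-04). The number called between genotypes, 9 without treatment and 8 after NCS, is not itself a test of the difference in response.

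The summed level of the 10 genes was 4321, 4286 and 3761 normalized counts in untreated WT samples and 7743, 7793 and 7715 in untreated 3KR samples. After NCS it was 4512, 4704 and 4106 in WT samples and 7199, 7417 and 7125 in 3KR samples. The 3KR sums were higher in every sample, by 1.88 times without treatment and 1.63 times after NCS, and by 1.80 and 1.57 times without WT number 3. Lyz2 made up 53.7% of the sum over all samples, and without Lyz2 the ratios were 2.27 and 1.98. Single genes spread around these ratios, from 1.51-fold for Aif1 to 3.15-fold for Ptprc in untreated samples, and genes with small SEs also differed in size, such as Lyz2 at 1.61-fold and Csf1r at 2.46-fold.

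A wider list of 30 macrophage genes without any of the 10 gave the same direction. Of these, 27 were tested, with 20 higher and 0 lower in untreated 3KR MEFs (median 1.01), and 17 higher and 0 lower after NCS (median 0.69). Without WT number 3 the counts were 20 and 1, and 18 and 0. Of the 17 higher calls after NCS 1 was lost without NCS-treated WT number 3 or NCS-treated 3KR number 2 or 3 (adjusted p up to 0.0997). Lcp1, an actin-bundling protein of leukocytes, had 379, 349 and 364 normalized counts in untreated WT samples and 1080.3, 1005 and 996 in untreated 3KR samples, with a log2 fold change of 1.49 ± 0.063 (SE, adjusted p = 2.37e-15). Msr1, a scavenger receptor, differed by 1.35 ± 0.083 (SE, adjusted p = 2.60e-12), and Itgam, the integrin chain CD11b, by 1.34 ± 0.10 (SE, adjusted p = 5.79e-11). Cx3cr1, the fractalkine receptor of monocytes and tissue macrophages, had 221, 173 and 197 in untreated WT samples and 463, 458 and 450.1 in untreated 3KR samples, and after NCS 186, 203 and 171 in WT samples and 294, 307 and 304 in 3KR samples. It fell with NCS in 3KR MEFs, with a log2 response of -0.60 ± 0.088 (SE, adjusted p = 1.17e-05), and its genotype difference was 1.20 ± 0.091 (SE, adjusted p = 1.14e-10) without treatment and 0.69 ± 0.10 (SE, adjusted p = 2.96e-06) after NCS. The chemokine receptor Ccr2, chosen after its values were seen, had 0 counts in all 6 WT samples, 23, 27 and 28 in untreated 3KR samples and 12, 14 and 17 in 3KR samples after NCS. Against a floor of 3 counts per library it was at least 8.89-fold higher without treatment and at least 5.22-fold higher after NCS, and with Ccr2 at this bound the medians of the list were the same. Ccr2 passed the filter through its 3KR counts alone, and without it the list had 19 of 26 genes higher in untreated samples (median 0.94) and 16 after NCS (median 0.58), with 0 lower. In contrast Cd163, Cd5l and Timd4, markers of some resident macrophages that were also chosen after their values were seen, had at most 4 counts in any sample and were not tested. With NCS 1 gene of the list was higher and 0 lower in WT MEFs, where 14.3% of all genes were higher and 12.4% lower, and without WT number 3 the counts were 0 and 0. In 3KR MEFs 0 were higher and 4 lower, where 15.8% of all genes were higher and 15% lower. Of these 4 calls 3 were lost without NCS-treated 3KR number 2, and each of the 3 also without at least 1 untreated 3KR sample (adjusted p up to 0.200).

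Transcription factors of the myeloid lineage were mostly higher as well. All 10 were tested, with 7 higher and 0 lower in untreated 3KR MEFs (median 0.85), and 8 higher and 0 lower after NCS (median 0.75). Several of them are also used outside the myeloid lineage, and Runx1, a regulator of blood formation, was the most abundant, with 2422, 2505 and 2551 normalized counts in untreated WT samples and 4637, 4938 and 4607 in untreated 3KR samples. Runx1 differed by 0.92 ± 0.037 (SE, adjusted p = 7.79e-16) and Maf, a factor of the leucine zipper type, by 0.89 ± 0.050 (SE, adjusted p = 4.13e-13). Bhlhe41, a repressor used by some tissue macrophages and by many other cells, differed by 1.14 ± 0.10 (SE, adjusted p = 1.61e-09). Spi1, chosen after its values were seen, encodes PU.1, the factor on which the macrophage lineage depends, and had 60.5, 72.0 and 51.7 in untreated WT samples and 221, 199 and 168 in untreated 3KR samples. The 3KR samples were above the WT samples, with a log2 fold change of 1.66 ± 0.16 (SE, adjusted p = 1.18e-08).

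**Figure D3:**
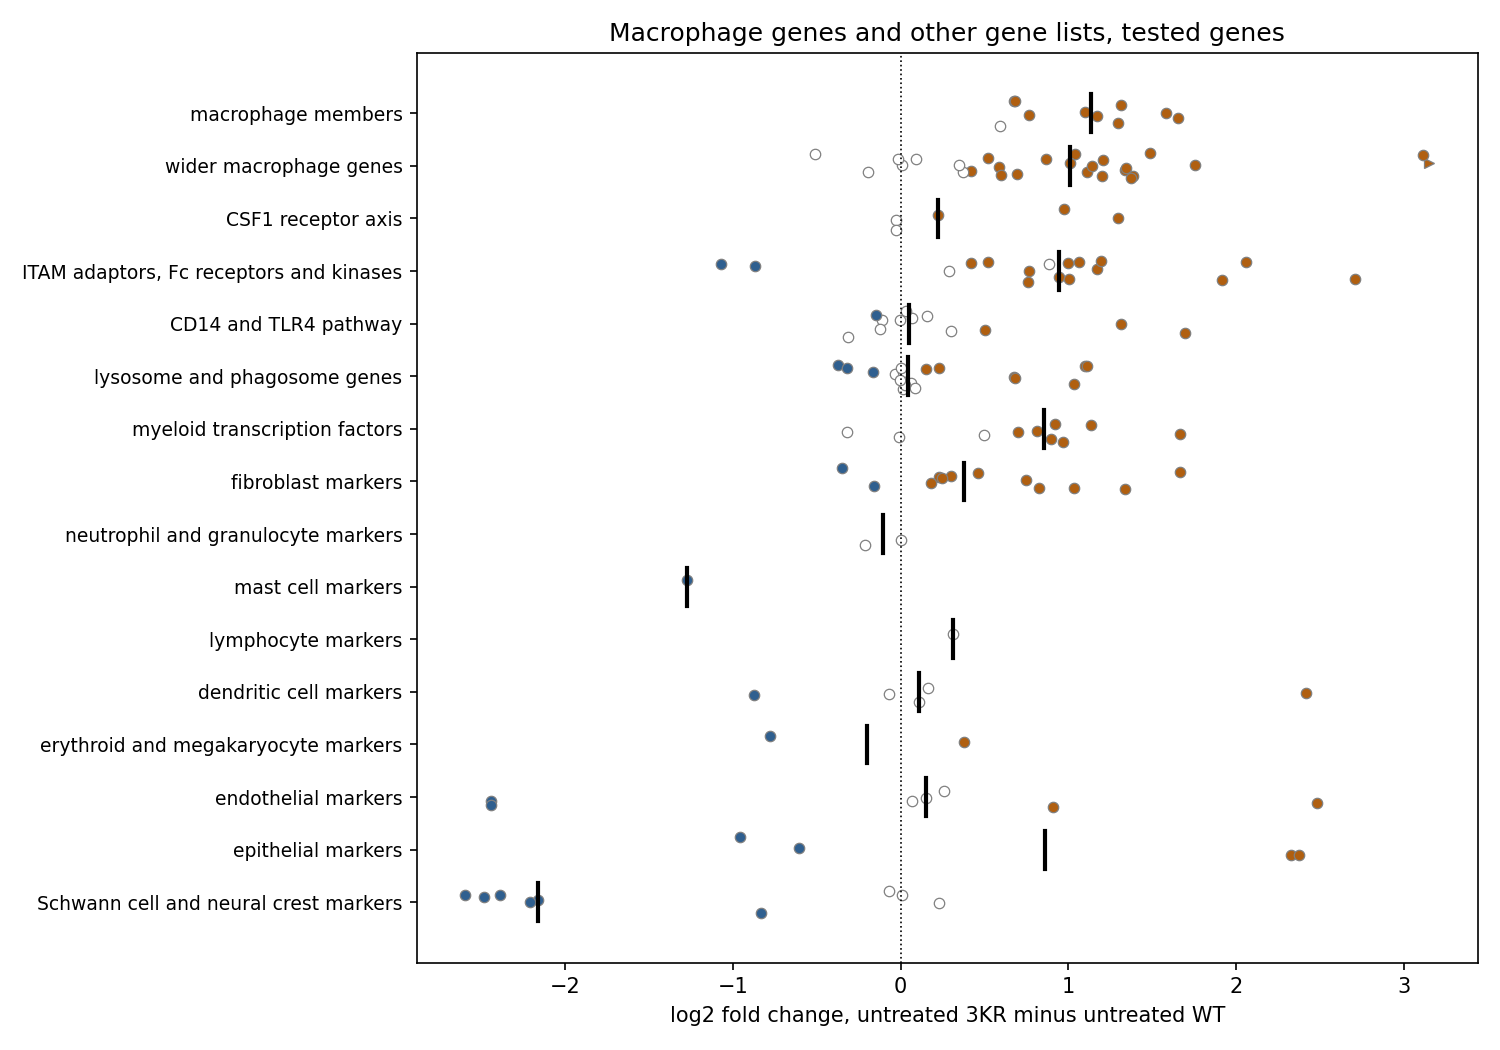
Log2 fold changes between untreated genotypes of the tested genes in each list; filled points passed adjusted p under 0.05 (orange higher, blue lower in 3KR), open points did not, and black bars are medians. The triangle is Ccr2, drawn at its lower bound of 3.15. Sex chromosome genes are not drawn. Most macrophage genes lie to the right of 0, and of the lists drawn the Schwann cell and neural crest markers have the lowest median, -2.17.

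Markers of other cell types were examined beside these genes, and their part in the macrophage result was not tested. Among other blood cells, lymphocyte, neutrophil and mast cell markers had few counts. Those of dendritic cells and of the erythroid and megakaryocyte lineages had more. Of 12 lymphocyte markers 1 was tested, the kinase Lck, which also had the highest counts and was not called by edgeR or DESeq2 or at an unadjusted p under 0.05 (0.31 ± 0.20, adjusted p = 0.212), and Cd3e, Cd3g, Cd8a and Ncr1 were at 0 in all samples. Of 11 neutrophil and granulocyte markers 2 were tested, of which edgeR called 0, DESeq2 called 0 and 0 had an unadjusted p under 0.05, among them the receptor Csf3r, with 9.94, 11.2 and 10.3 normalized counts in untreated WT samples, and Mpo. S100a9 and Retnlg were at 0 in all samples. Of 8 mast cell markers 1 was tested, the receptor Kit, which was lower in untreated 3KR MEFs (-1.27 ± 0.30, adjusted p = 0.00113) and after NCS (adjusted p = 0.0138), the latter call being lost without WT number 3 (adjusted p = 0.0524), and Tpsb2 was at 0. Of 9 erythroid and megakaryocyte markers 2 were tested, 1 higher and 1 lower; the platelet gene Gp1bb was most abundant and lower (-0.78 ± 0.10, adjusted p = 1.33e-06), and Hba-a2, Hbb-bt and Hbb-bs were at 0. Of 11 dendritic cell markers 5 were tested, 1 higher and 1 lower; Zbtb46 was most abundant and lower (-0.88 ± 0.092, adjusted p = 2.99e-08), Cd209a was at 0, and the higher gene was Cd74, a chain used in antigen presentation that was named after its values were seen (2.42 ± 0.27, adjusted p = 1.03e-07). Summed over each list, the lymphocyte markers had 58.0, 58.8 and 46.6 normalized counts in untreated WT samples and 58.4, 58.2 and 59.1 in untreated 3KR samples. The neutrophil and granulocyte markers had 20.7, 26.4 and 29.0 and 35.3, 26.0 and 27.3 in the same samples, the mast cell markers 43.1, 28.4 and 54.9 and 15.1, 22.9 and 22.7. The erythroid and megakaryocyte markers had 701, 591 and 639.6 and 555, 526 and 564, and the dendritic cell markers 505, 514 and 475 and 365, 342 and 396, again for untreated WT and untreated 3KR samples. All these sums were below those of the macrophage genes in the same samples, with ratios of 3KR to WT from 0.481 for mast cell markers to 1.16 for neutrophil and granulocyte markers. The dendritic ratio depended on Zbtb46, which made up 74.7% of that sum; it was 0.738 with this gene and 1.74 without it, and after NCS 0.785 and 1.51. Without the most abundant gene the untreated ratio was 1.30 for erythroid and megakaryocyte markers, 1.28 for neutrophil and granulocyte markers, 0.809 for mast cell markers and 0.465 for lymphocyte markers, and after NCS these ratios were 1.23, 0.861, 0.661 and 1.05.

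Markers of cells outside the blood moved with genotype in both directions. Of the 12 fibroblast markers 10 were higher and 2 lower in untreated 3KR MEFs (median 0.38), and 9 were higher and 2 lower after NCS. Of the lower calls after NCS 1 was lost without NCS-treated WT number 2 or NCS-treated 3KR number 1 (adjusted p up to 0.0656), and without WT number 3 in both treatments 9 were higher and 3 lower after NCS. Their sum, led by Col1a1, was 2192095, 2185291 and 2266459.9 normalized counts in untreated WT samples and 2391587, 2431247 and 2364134 in untreated 3KR samples, and 0 of the 12 were at 0. Pdgfra, a growth factor receptor of mesenchymal cells, differed by 1.67 ± 0.032 (SE, adjusted p = 9.18e-22) and Col1a1 by 0.30 ± 0.022 (SE, adjusted p = 6.90e-11). The 2 lower markers in untreated samples were Fn1 at -0.35 (adjusted p = 2.65e-12) and Vim at -0.16 (adjusted p = 1.99e-06). All 9 Schwann cell and neural crest markers were tested, with 0 higher and 6 lower in untreated 3KR MEFs and 1 higher and 6 lower after NCS, none at 0. Their sum, led by the neurotrophin receptor Ngfr, was 7979.7, 8043 and 8337 in untreated WT samples, 8107, 8103 and 7946 in WT samples after NCS, 1879, 1816 and 1843 in untreated 3KR samples and 1624, 1608 and 1600.5 in 3KR samples after NCS. The 3KR sums were thus 0.227 and 0.200 times the WT sums, and Ngfr differed by -2.17 ± 0.044 (SE, adjusted p = 1.66e-21). Of 10 endothelial markers 7 were tested, with 2 higher and 2 lower in each treatment and none at 0. Their sum was 4049.5, 4234 and 4184 in untreated WT samples and 7862, 7800.0 and 8061 in untreated 3KR samples, 87.3% of it from the VEGF receptor Flt1 (0.91 ± 0.033, adjusted p = 9.02e-17). The transcription factor Erg was higher by 2.48 ± 0.080 (SE, adjusted p = 1.30e-17). The 2 lower markers in untreated samples, named after their values were seen, were Emcn at -2.44 (adjusted p = 4.22e-05) and Esam at -2.44 (adjusted p = 3.41e-12). Of 8 epithelial markers 4 were tested, 2 higher and 2 lower, none at 0, with a sum of 544, 537 and 556 in untreated WT samples and 339, 382 and 332 in untreated 3KR samples, and the keratin gene Krt19 was most abundant and lower (-0.96 ± 0.093, adjusted p = 8.71e-09). The other lower call was lost without untreated 3KR number 3 (adjusted p = 0.111). The 2 higher markers in untreated samples were Cdh1 at 2.33 (adjusted p = 8.33e-06) and Krt8 at 2.38 (adjusted p = 6.64e-04). The epithelial ratio of 3KR to WT was 0.643 with Krt19, which made up 77.6% of the sum, and 1.19 without it, and after NCS 0.699 and 1.03. Beside the list counts above, 22.1% of all genes tested were higher and 23.6% lower in untreated 3KR MEFs. After NCS these shares were 22.9% and 23.6%, and a count near them does not set a list apart. Markers of several cell types differed between the genotypes, with the macrophage genes among them.

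The genes whose pattern was most like that of the 10 were sought among 11749 genes with enough counts, by the correlation over the 12 samples with the mean standardized level of the 10. The samples fall into separate clusters by genotype, so a high correlation mostly records a genotype difference. The highest were Ndufa4l2 (r = 0.997, 12 samples), 1500015O10Rik (r = 0.996), Aspn (r = 0.994), Ptn (r = 0.993), Msx1 (r = 0.993) and Chrdl1 (r = 0.992). Aspn, a matrix proteoglycan of connective tissue, had 4308 ± 341 normalized counts in untreated WT samples and 16180.1 ± 88.3 in untreated 3KR samples (SD, n = 3), a log2 fold change of 1.90. The homeobox factor Msx1 had 205 ± 17.1 and 883 ± 34.4. Each of the 6 was higher in untreated 3KR MEFs, which follows from how they were chosen. Among the 10 genes, the correlation of each with the mean of the others over the 12 samples ran from 0.415 for Aif1 to 0.989 for Csf1r, and it shares the same clustering by genotype.

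Sequence before the start of these genes was read because 9 of the 10 were called higher in untreated 3KR MEFs. Aif1 was not called. The sequences came from RefSeq for the build GRCm38.p6. Entries were matched for 6 of the 10 genes, and Tyrobp, Adgre1, Csf1r and Cd14 were not matched. Motifs of the type bound by ETS factors such as PU.1 were searched on both strands in the 250 bases before each start, and were chosen after the expression data had been seen. The motif GAGGAA, which on the other strand reads TTCCTC, was found in 23.3% of 32851 promoters and in 6 of the 8 promoters of the 6 matched genes, with at least 1 match each for Aif1, Cd68, Fcgr3, Laptm5 and Ptprc. The motif AGGAAGT, which on the other strand reads ACTTCCT, was found in 7.69% of promoters and in 3 of these 8, with at least 1 match each for Lyz2 and Ptprc. The sequences of 4 of the 6 matched genes are shown as examples, picked by hand without a set rule, each as its 250 bases before the start, read 5′ to 3′ on the strand of the gene, with matches to either motif in capitals. Lyz2 lies at chr10:117282273-117282522 on the minus strand, Cd68 at chr11:69666171-69666420 on the minus strand, Laptm5 at chr4:130913066-130913315 on the plus strand and Ptprc at chr1:138175306-138175555 on the minus strand, and all are upstream of the annotated transcript.
Lyz2: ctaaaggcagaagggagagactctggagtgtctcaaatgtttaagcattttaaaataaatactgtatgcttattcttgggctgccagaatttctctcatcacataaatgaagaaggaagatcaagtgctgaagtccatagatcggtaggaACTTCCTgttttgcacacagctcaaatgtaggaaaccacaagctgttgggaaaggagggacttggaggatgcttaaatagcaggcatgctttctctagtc
Cd68: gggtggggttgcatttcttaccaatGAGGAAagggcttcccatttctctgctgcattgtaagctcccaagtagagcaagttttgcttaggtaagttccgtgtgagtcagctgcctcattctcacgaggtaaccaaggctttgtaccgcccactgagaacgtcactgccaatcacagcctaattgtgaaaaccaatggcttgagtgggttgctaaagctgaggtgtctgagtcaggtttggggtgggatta
Laptm5: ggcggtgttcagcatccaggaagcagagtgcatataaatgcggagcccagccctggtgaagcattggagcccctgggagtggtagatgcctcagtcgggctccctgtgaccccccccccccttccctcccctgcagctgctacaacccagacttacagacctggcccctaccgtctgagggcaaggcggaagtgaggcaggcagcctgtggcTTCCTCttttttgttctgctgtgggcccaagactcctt
Ptprc: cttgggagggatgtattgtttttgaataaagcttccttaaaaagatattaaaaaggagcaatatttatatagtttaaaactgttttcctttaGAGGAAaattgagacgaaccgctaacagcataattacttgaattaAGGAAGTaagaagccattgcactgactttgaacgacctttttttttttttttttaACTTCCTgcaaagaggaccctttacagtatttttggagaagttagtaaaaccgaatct
The Lyz2 match, on the opposite strand, begins 100 bases before the start, and the Cd68 match, on the strand of the gene, begins 225 bases before it. The GAGGAA matches of Fcgr3 and Aif1, not shown, are on the opposite strand and begin 6 and 7 bases before the start. A match describes these letters only, and no binding was measured here.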

How the data were processed

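Gene expression was measured by mRNA-seq in 12 samples (stranded TruSeq mRNA libraries read on a HiSeq instrument). The authors deposited raw counts per Ensembl gene for each sample, neither normalized nor filtered; the submitters' processing notes name TopHat, HTSeq, DESeq and the build mm9, the study's methods name DESeq2, and whether counting used the strand is not given in the sources used here. Symbols and exon lengths came from GENCODE M21, which held 32919 of the 37991 identifiers; since the counts were made on mm9, levels per kb are approximate.

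Groups came from the sample labels. Counts were filtered with filterByExpr, leaving 15327 genes, and scaled by TMM. Each of the 4 groups had its own coefficient in a quasi-likelihood model (edgeR 4.0.16, R 4.3.3), p-values were adjusted by Benjamini-Hochberg across the genes that passed, and an adjusted value under 0.05 was called. Normalized counts used the size factors of DESeq2 1.42.0. The procedure was tested on simulated counts with 200 changed genes, of which 100% at a log2 fold change of 1 and 94% at 0.5 were recovered. Unchanged genes made up 5.37% of those called. Far more genes were called between the genotypes here, so the simulation does not resemble these data in that respect. Tables and plots used Python 3.11.15, pandas 2.3.3 and matplotlib 3.10.9.

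Total counts per sample ran from 33203757 to 45279321 (median 37623686). A count of 3, the floor used for a gene at 0, is 0.0663 to 0.0904 CPM, and such floors cover counting error only. The legend of the figure in which the study shows these counts speaks of 3 independent experiments, on cells or on mice. Whether the samples of a group came from separate embryos is not given in the sources used here, so p-values measure the spread between these samples, which may be technical.

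The 10 genes and the 16 other lists were chosen with earlier results of these data known. The genes named are the 10, every gene of the CSF1 receptor axis, the 4 lowest p-values between untreated genotypes in each other macrophage list (wider macrophage genes, ITAM adaptors, CD14 and TLR4 pathway, lysosome and phagosome genes, myeloid transcription factors), the most abundant gene and that with the lowest p in each list of another cell type (fibroblast, neutrophil, mast cell, lymphocyte, dendritic, erythroid, endothelial, epithelial, Schwann cell), the 6 genes of most similar pattern among those with a mean log2 CPM of at least 1, E2f1, Xist and Ddx3y, and Lyz1, Fcgr2b and Fcgr4. Some genes under this rule are not reported here. Of 5 sex chromosome genes, 1 was higher and 4 lower in untreated 3KR MEFs.

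Alternatives were the size factors of DESeq2, library totals, the DESeq2 Wald test, a run without the filter, a filter of 10 or more counts throughout, fits of the compared samples alone, the sample number as a block, each sample left out, and WT number 3 left out of both treatments. In the pairing check, deviations from group means of untreated and NCS-treated samples of the same number had correlations of 0.267, 0.234 and 0.468 over 9602 genes in WT MEFs, which were taken as paired, so blocked values stand beside the WT response to NCS where they change a call; over all genes the block gave 5239 calls there, against 4090 without it.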

Additional observations from a re-analysis of the deposited data

Results flagged for a closer look

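The interaction term of edgeR, which compares the NCS response of 3KR MEFs with that of WT MEFs, was applied to 134 tested genes of the lists, sex chromosome genes aside. Of these, 10 had a lower and 0 a higher response in 3KR MEFs, where over all genes 1.87% had a lower and 1.86% a higher response. With WT number 3 left out the counts were 30 lower and 4 higher of 136 tested, while 906 were lower and 936 higher of all 15565 genes in that fit. The higher ones were 2 fibroblast markers, Csf1 and 1 gene of the ITAM list, and 11 of the lower ones were lysosome and phagosome genes. None of the 10 macrophage marker genes was among them with all samples included; 4 had an unadjusted p under 0.05 and DESeq2 called 0. Mrc1, Col3a1, Dcn, Lum and Fn1 are named here because of this test, after their values were seen. The untreated samples of a genotype enter both its response and the untreated genotype difference, so these values are not independent.

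Among macrophage genes, the mannose receptor Mrc1 had 314, 281 and 275 normalized counts in untreated WT samples, 344, 359.6 and 325 in WT samples after NCS, 557, 501 and 541 in untreated 3KR samples and 464, 414 and 456 in 3KR samples after NCS. It responded by 0.23 ± 0.082 (SE, adjusted p = 0.0372) in WT MEFs and by -0.26 ± 0.075 (SE, adjusted p = 0.0110) in 3KR MEFs, with a difference of -0.49 (adjusted p = 0.0123) that held in all 19 alternatives. The WT response was lost in 9 of 14 alternatives, among them those without untreated WT number 2 or 3, without NCS-treated WT number 1 or 2 and without WT number 3 in both treatments (adjusted p up to 0.144). The 3KR response was lost without untreated 3KR number 1 or NCS-treated 3KR number 2 (adjusted p up to 0.0656). Cx3cr1 had a difference of -0.51 (adjusted p = 0.0325), which was lost in 9 of 19 alternatives, all of them with 1 sample left out (untreated WT number 2, NCS-treated WT number 1 or 2 or any 3KR sample), where the adjusted p reached 0.110. Tlr2 went from 85.3, 84.2 and 83.8 to 105, 97.7 and 116 normalized counts in WT samples and from 274, 291 and 259 to 231, 177 and 239.9 in 3KR samples. Its difference of -0.66 (adjusted p = 0.0392) was lost in 9 of 19 alternatives, those without untreated WT number 1 or 2, NCS-treated WT number 1 or 3, any untreated 3KR sample or NCS-treated 3KR number 1 or 2 (adjusted p up to 0.0976). Bhlhe41 went from 114, 128 and 129 to 172, 176 and 181 in WT samples and from 281, 271 and 266 to 276, 257 and 239.9 in 3KR samples. Its difference of -0.59 (adjusted p = 0.0173) was lost without untreated WT number 1, untreated 3KR number 1 or NCS-treated 3KR number 3 (adjusted p up to 0.0611).

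Among fibroblast markers, the difference was -0.21 (adjusted p = 1.61e-04) for the collagen gene Col3a1, -0.28 (adjusted p = 0.00876) for the proteoglycan gene Dcn, -0.37 (adjusted p = 2.79e-04) for the related Lum and -0.14 (adjusted p = 0.0117) for the fibronectin gene Fn1, and none of these was lost in any of 19 alternatives. For Pdgfra it was -0.16 (adjusted p = 0.0423), lost in 10 of 19 alternatives, those with at least 10 counts in every sample and those without untreated WT number 1 or 2, NCS-treated WT number 1 or 2, any untreated 3KR sample or NCS-treated 3KR number 2 or 3 (adjusted p up to 0.137). The endothelial marker Erg went from 175, 159 and 150.1 to 149.7, 164 and 159 normalized counts in WT samples and from 855, 913 and 961 to 516, 524 and 466 in 3KR samples, a difference of -0.81 (adjusted p = 2.43e-04) that held in all 19 alternatives. The genes of most similar pattern were picked for following the mean profile of the 10 genes over all samples, in which the 3KR samples are lower after NCS and the WT samples are not, so a lower response in 3KR MEFs is part of how they were chosen. Their differences are therefore given as sizes only and are no test. Among them the difference was -0.37 for Ndufa4l2, -0.45 for Aspn and -0.39 for Ptn. For 1500015O10Rik it was -0.48. The values without WT number 3 ran from -0.76 for Erg to -0.17 for Pdgfra. What sets these responses apart was not tested.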

How the results depend on the processing

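Between genotypes, 9 of the 10 genes in untreated samples and 8 after NCS kept their direction and their call in all 14 alternatives each; Csf1r ranged from 1.24 to 1.34 and Fcgr3 from 0.65 to 0.89 in untreated samples. Aif1 passed in untreated samples with at least 10 counts in every sample and with only the compared samples (adjusted p = 0.0481 and 0.0421), over a range of 0.0421 to 0.172. Over the values, counts and summed ratios of the 10 genes and the counts of all genes called, 813 were unchanged across alternatives, 19 lost and 42 gained a call or moved a count past 1.5 times, and 17 changed direction; the cause was not tested. Summed levels gave ratios of 1.87 and 1.63 with TMM scaling, and 1.89 and 1.65 with library totals.

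The responses to NCS depended on the processing. In WT MEFs, 1 gene was called, but 0 with library totals, with no filter or with only the compared samples, 2 without WT number 3 and 0 to 3 with single samples left out. In 3KR MEFs, 0 were called, but 2 with library totals, 1 with no filter, 3 with only the compared samples and 0 to 1 with single samples left out. For the difference between the responses, 0 were called, but 1 with no filter, 3 without WT number 3 and 0 to 1 with single samples left out. Over all genes this difference gave 572 calls, 1842 without WT number 3 and 345 to 1159 with single samples left out.

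With the replicate block, 2 of the 10 genes were called in WT MEFs, 2 in 3KR MEFs (Csf1r and Lyz2) and 1 for the difference (Lyz2), and 1379 of all genes for the difference; Fcgr3 passed between genotypes after NCS (adjusted p = 0.0479), as it did with no filter (0.0414), and no other call of the 10 genes changed. In 3KR MEFs the correlations of the pairing check were 0.00102, 0.0502 and 0.00241, and between genotypes they ran from -0.0305 to 0.0234. No pairing by sample number was seen there, which does not show whether those samples share an origin.

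Among the 10 genes, the values that changed direction were small and uncalled. Csf1r in WT MEFs gave -0.016 with library totals, -0.0014 without WT number 3 and -0.023 to 0.079 with single samples left out. With single samples left out, Cd14 in WT MEFs gave -0.019 to 0.24, Aif1 in WT MEFs -0.22 to 0.089, Aif1 between genotypes after NCS -0.088 to 0.31, and the difference in response -0.040 to 0.094 for Cd68 and -0.081 to 0.16 for Tyrobp.

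With 3 samples a group, sex and genotype joined, 1 WT number standing apart and no count of cells, these values describe these cultures. A share of macrophages, a level per macrophage and an effect of the allele apart from sex were not measured. Aif1 had 17 to 54 counts.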
